A study of Rattus norvegicus with 16 samples.

Results

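Livers of control male Sprague-Dawley rats at weaning were set against a universal rat reference RNA, on the 4 arrays of the control group C out of 16 arrays in the series. Each array was a 2-colour Agilent oligonucleotide array on which Cy5-labelled liver RNA and Cy3-labelled reference RNA were hybridised together, so that each array carries its own liver to reference ratio. The reference was a commercial RNA pool labelled as coming from 14 rat cell lines, and it was the same on all arrays. The members were chosen by their titles alone, as day 21 control liver that had stayed with its birth mothers.

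Group C held male pups of 21 days whose dams received corn oil through gestation and lactation and raised their own litters. The other 3 groups held 4 arrays each and were used to estimate the spread and to place C. Group CC held pups of corn oil dams that were cross-fostered to other corn oil dams. Group M held pups left with dams dosed at 1 mg/kg/day with a contaminant mixture in corn oil (polychlorinated biphenyls, organochlorine pesticides and methyl mercury), and group MM held mixture-exposed pups cross-fostered to dams given the same mixture. Each liver sample pooled RNA of 2 pups of 1 group, and the labels do not say which pups shared a litter, so p-values measure the spread between pools. Groups C and CC lay on slide 1 and groups M and MM on slide 2, so slide and mixture cannot be told apart. Liver was always Cy5, with no dye swap, and a dye effect that is specific to a probe cannot be told apart from a difference between liver and reference.

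The liver of a weanling rat consists mainly of hepatocytes, which secrete most plasma proteins, make urea and glucose, synthesise bile acids and oxidise drugs and fatty acids. Sinusoidal endothelial cells, Kupffer cells, stellate cells and bile duct cells make up most of the remainder, and blood-forming cells leave the organ around the time of birth and early life. Cultured cell lines divide, spread on their support and rely on glycolysis. A ratio against such a pool ranks genes by how far liver stands from those lines, and not by abundance. In bulk RNA, fewer cells of a type and less RNA per cell cannot be told apart.

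The 5 promoters shown next belong to genes on which the results turn. They are the plasma carrier albumin and its fetal relative alpha-fetoprotein, both far higher in liver, and the mitotic kinase genes Cdk1 and Plk1, both lower. The last is the cholesterol synthesis gene Hmgcs1, which varied between pools of control liver. Each window runs from 250 bases before to 50 bases after the gene's start in RefSeq on build GRCr8, and is printed 5′ to 3′ on the strand of the gene. The windows are chr14:17906930-17907229 (minus strand) for Alb, chr14:17875596-17875895 (minus strand) for Afp, chr20:19265043-19265342 (plus strand) for Cdk1, chr1:186147408-186147707 (plus strand) for Plk1 and chr2:53382054-53382353 (plus strand) for Hmgcs1. Capitals mark CCAAT, the letters bound by NF-Y, in all 5 windows. They also mark TATAAA, found in Afp and Hmgcs1, and TTTGAA, the cell cycle element CHR, found in Cdk1 and Plk1. Both strands were searched, so ATTGG is CCAAT on the other strand.
Alb: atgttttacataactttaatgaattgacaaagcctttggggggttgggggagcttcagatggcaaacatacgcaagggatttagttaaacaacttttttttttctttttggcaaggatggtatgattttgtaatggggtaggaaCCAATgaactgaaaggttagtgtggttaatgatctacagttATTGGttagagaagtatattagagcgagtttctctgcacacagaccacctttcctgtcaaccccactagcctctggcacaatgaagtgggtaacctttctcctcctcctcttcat
Afp: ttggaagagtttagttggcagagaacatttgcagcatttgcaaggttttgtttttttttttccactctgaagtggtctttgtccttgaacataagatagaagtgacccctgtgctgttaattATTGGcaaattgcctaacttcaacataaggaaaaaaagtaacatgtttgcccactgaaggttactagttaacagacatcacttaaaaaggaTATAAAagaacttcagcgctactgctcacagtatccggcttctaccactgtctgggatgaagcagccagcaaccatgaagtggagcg
Cdk1: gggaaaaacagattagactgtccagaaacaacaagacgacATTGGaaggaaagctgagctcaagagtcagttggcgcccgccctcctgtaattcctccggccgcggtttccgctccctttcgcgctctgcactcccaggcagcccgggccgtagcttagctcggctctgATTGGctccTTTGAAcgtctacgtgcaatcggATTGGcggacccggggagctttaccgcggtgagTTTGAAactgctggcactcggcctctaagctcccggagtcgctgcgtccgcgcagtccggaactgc
Plk1: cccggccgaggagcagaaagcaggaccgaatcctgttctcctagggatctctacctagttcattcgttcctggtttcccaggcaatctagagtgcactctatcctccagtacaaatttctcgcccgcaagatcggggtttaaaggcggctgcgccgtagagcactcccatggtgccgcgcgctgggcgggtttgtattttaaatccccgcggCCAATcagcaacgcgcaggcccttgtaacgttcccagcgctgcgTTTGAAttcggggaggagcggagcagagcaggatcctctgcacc
Hmgcs1: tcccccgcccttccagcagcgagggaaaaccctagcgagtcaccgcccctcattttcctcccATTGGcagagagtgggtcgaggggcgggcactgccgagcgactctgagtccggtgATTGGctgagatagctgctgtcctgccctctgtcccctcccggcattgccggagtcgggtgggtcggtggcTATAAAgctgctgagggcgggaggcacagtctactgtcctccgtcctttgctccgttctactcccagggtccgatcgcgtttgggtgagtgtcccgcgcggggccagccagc

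CCAAT or its complement began at positions -106 and -65 from the start in Alb and at position -128 in Afp, and TATAAA began at position -37 in Afp and at position -62 in Hmgcs1. Cdk1 held 3 CCAAT matches and 2 TTTGAA matches, and Plk1 held 1 of each. Over all 27457 RefSeq promoters of this length, 37.7% held CCAAT, 18.1% held TTTGAA and 14.3% held TATAAA. Among measured genes called neither higher nor lower the shares were 37.7%, 11.6% and 7.46%. Among measured mitosis genes with a promoter entry, 16 of 18 held CCAAT and 12 of 18 held TTTGAA. Among coagulation factors 8 of 12 held CCAAT, and among cholesterol synthesis genes 14 of 16 held CCAAT. Other lists of secreted proteins held it less often, with 10 of 25 plasma carriers and protease inhibitors, 3 of 11 complement genes and 5 of 15 apolipoprotein genes. Among all genes called higher the share with CCAAT was 42.0%, and among those called lower 35.3%. The sterol element, searched only as TCACNCCAC, was found in 0 of the 16 cholesterol synthesis windows and in 1.13% of all windows. At that share 16 windows are too few to tell whether it is rarer there. These matches describe letters in a fixed window and are not evidence of binding.

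Among 17879 genes or identifiers measured in liver or in the reference, 1992 were higher in liver and 1351 were lower. The call required the ratio to lie beyond 2-fold in limma's treat test with a Benjamini-Hochberg adjusted p below 0.05, with the mean of the 4 C arrays as the estimate. The calls thus covered 11.1% of genes on the higher side and 7.56% on the lower side, which is the background for the counts of members given next. Tested against 0 in place of 2-fold, 77.5% of genes differed in one direction or the other. The median log2 ratio over all genes was -0.06, and a value of 1 is a 2-fold excess in liver. Pearson correlations between the C arrays over these genes lay between 0.979 and 0.987. Several arrays stood apart from the rest in markers of other tissues. Within C, array C 10 had a median of 1.61 over the adipose markers, against 0.24 to 0.60 on the other C arrays. Outside C, CC 1 and CC 2 had high medians for skeletal muscle (3.28 and 3.23) and exocrine pancreas markers (3.08 and 4.33), CC 1 also for adipose markers (2.33), and MM 1 and M 6 for pancreas markers (2.54 and 1.80). CC 1 also had compressed ratios for the highest genes. Without CC 1 and CC 2 the calls for C were 1998 higher and 1377 lower, with the 4 C arrays alone 2023 and 1378, and without C 10 they were 1912 and 1270. Among the named genes 25 had several probes, and in 14 of them the probes lay over 1.5 log2 units apart. The brightest probe is the one given. On spike-in RNAs of known ratio, the scanner's log ratios followed the expected ones with slopes of 0.823 to 0.870 on the C arrays, so they may understate differences. The loess ratios given here correlated with the scanner's at 0.886 to 0.897. Whether they understate differences too was not tested on the spike-in RNAs. With a smaller offset in the background correction, 16 in place of 50, the calls were 2409 higher and 1603 lower.

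The balance of higher against lower genes depended on how the arrays were centred. Higher genes made up 59.6% of calls under loess normalization, 17.3% where ratios were only centred on each array's median, 37.4% with the scanner's own log ratios and 49.9% in the authors' deposited table. The corresponding medians over all genes were -0.06, -0.48, -0.50 and -0.15 on the log2 scale. No gene called in one direction was called in the other under any setting tried. Each ratio is read relative to those medians.

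The genes furthest above the reference were mostly products of the hepatocyte, and 8 of 9 defining hepatocyte markers were higher, the exception being Hnf4a. The highest ratio among genes measured in both channels belonged to Slc27a5, the enzyme that activates bile acids for conjugation, at 10.21, 10.002, 9.92 and 9.99 on arrays C 9, C 10, C 11 and C 12. The mean log2 ratio was 10.03 ± 0.12 (SD, n = 4, as for all values with ± given here), about 1044-fold, with an adjusted p of 5.59e-18. The 4 arrays lay close together, and none approached the reference. The sulfotransferase Sult2a6 followed at 9.83 ± 0.12 and the steroid and drug hydroxylase Cyp3a2 at 9.82 ± 0.27. Apoc1, a small apolipoprotein of circulating lipoproteins, stood at 9.63 ± 0.24, and Fabp1, the liver fatty acid binding protein, at 9.52 ± 0.07. The remaining 10 of the 15 highest were Slc27a2, C4bpb, Itih4, Ttr, Alb, Serpinc1, Serpina3c, Hbb, Ttc36 and Ambp, with means between 8.68 and 9.26.

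For 153 genes the reference signal was not well above background on any C array, and only a lower bound can be given, which without a dye swap is open to dye bias. The largest bounds belonged to the P450 gene Cyp3a23-3a1, at least 168-fold higher in liver, the thioesterase Acot5, at least 154-fold, and the fatty acid hydroxylase Cyp4a3, at least 142-fold. Slco1b2, the hepatocyte uptake carrier for organic anions, was at least 92.1-fold higher. Cldn14, Fgl1, Gdf2, Aadac, Bhmt2 and Acox2 completed the 10 largest. The brightest probe of Bhmt2 had a log2 ratio of 5.97, and its other probe 3.23. Conversely, 4968 genes had no liver signal well above background on any of the 4 arrays.

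At the other end the lowest ratio belonged to a keratin. Krt6c, a keratin of stressed epidermis, had log2 ratios of -6.60, -6.54, -6.37 and -6.42 on C 9, C 10, C 11 and C 12, a mean of -6.48 ± 0.11. It was about 89.5-fold lower in liver, with an adjusted p of 4.62e-17 and no overlap of any array with 0, although 2 other probes of this gene gave smaller differences, up to -2.61. The calcium-binding proteins S100a6 and S100a4 followed at -5.35 ± 0.26 and -5.15 ± 0.14. Anxa1, a membrane-binding annexin, had a mean of -5.10 ± 0.17. Others among the 15 lowest were Gpr15lg, the homeobox gene Rhox5, the activin antagonist Fst, Spp1 or osteopontin, the mast cell protease Mcpt8, Trem2, Lypd3, Crabp2, Krt17, Gpx2 and Ly6d, between -5.73 and -4.40. The other probe of Gpx2 was at -2.54. Among genes without liver signal above background, the largest bounds were for Grem1, at least 23.3-fold lower in liver by its brightest probe, and Ccl2, Cdhr1, Bcat1, Anxa8, Myh3, Bex1, Epdr1, Lin28a and Ndrg1. The other probe of Grem1 gave a smaller difference, at -2.78. For Lin28a another probe was at -0.27, within 2-fold of the reference.

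**Figure D1:**
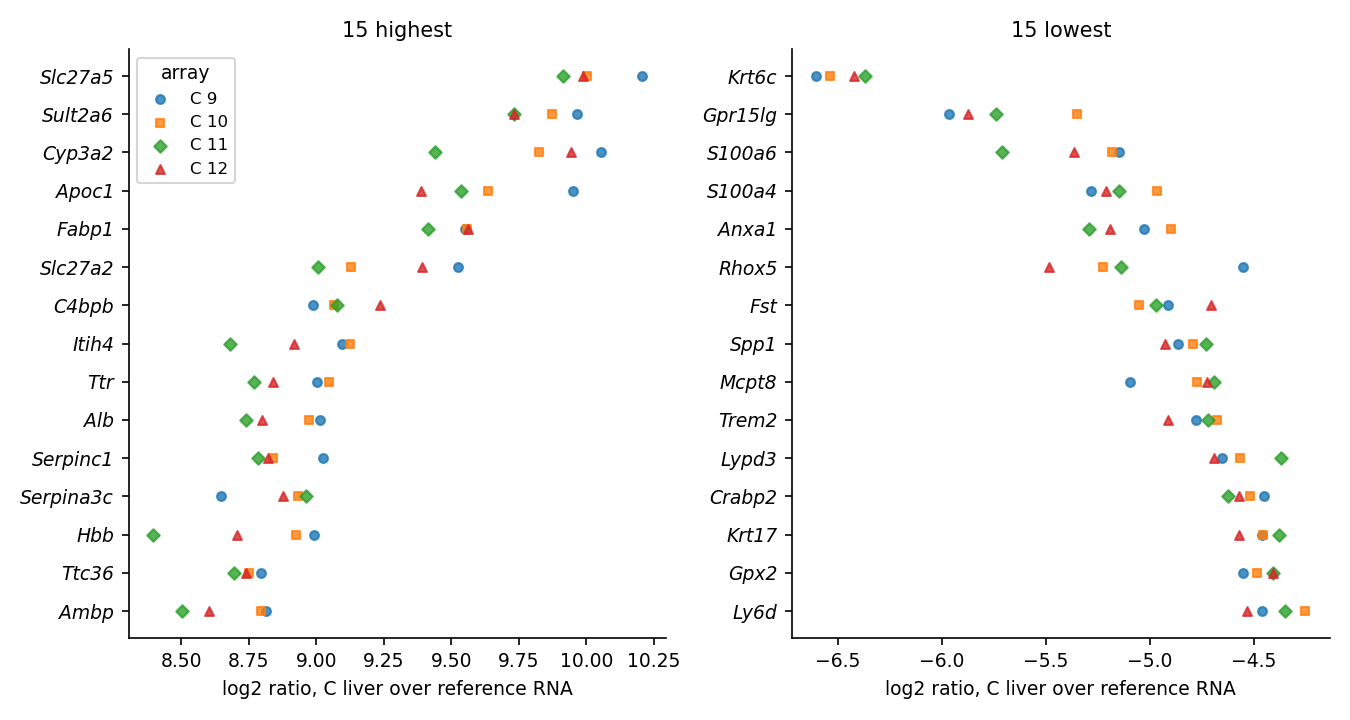
Log2 ratio of control liver over reference RNA on each of the 4 C arrays for the 15 genes with the highest means (left) and the 15 with the lowest (right), among called genes measured in both channels. The arrays, shown by marker, spread far less within a gene than the distance of any gene from 0.

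Secreted plasma proteins were high in nearly all cases. Of 34 measured plasma carriers and protease inhibitors, 33 were higher in liver and 0 lower, with a median log2 ratio of 7.42. Alb, the main plasma carrier, had log2 ratios of 9.01, 8.97, 8.74 and 8.80 on C 9, C 10, C 11 and C 12, a mean of 8.88 ± 0.13, about 471-fold. The thyroid hormone and retinol carrier Ttr stood at 8.92 ± 0.13, the retinol-binding protein Rbp4 at 8.61 ± 0.09 and the antithrombin gene Serpinc1 at 8.87 ± 0.11. Lrg1, a leucine-rich glycoprotein of plasma, did not pass, at 0.67 ± 0.24. All 15 measured coagulation factors were higher, with a median of 6.08, from Fga, Fgb and F12 above 8 to F9 at 4.52 ± 0.10. Of 17 complement genes 16 were higher and 0 lower, with a median of 5.71, and the central component C3 stood at 6.69 ± 0.16. Of 23 apolipoprotein and lipoprotein assembly genes 21 were higher and 0 lower. Their median was 5.67, with Apob at 7.88 ± 0.18 and Apoa1 at 7.38 ± 0.08, whereas the phospholipid transfer gene Pltp was at 0.69 ± 0.19 and did not pass.

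Enzymes of nitrogen disposal were high throughout. Of 10 urea cycle and ammonia genes 9 were higher, with a median of 3.71. Arg1, which releases urea, had ratios of 8.57, 8.43, 8.12 and 8.25 on C 9, C 10, C 11 and C 12, a mean of 8.34 ± 0.20. Otc stood at 7.10 ± 0.11, and Cps1, the entry enzyme of the cycle, at 3.50 ± 0.12. Glul, which makes glutamine in the cells around the central vein, did not pass, at 0.96 ± 0.23, but did with the scanner's own log ratios, at 3.04. Of 34 amino acid catabolism genes 33 were higher and 0 lower, with a median of 4.09. The highest were Hpd of tyrosine breakdown at 7.11 ± 0.08, Prodh of proline breakdown at 6.71 ± 0.10, with a second probe at 1.76, and the betaine methyltransferase Bhmt at 6.45 ± 0.07.

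Glucose production and fatty acid oxidation were also above the reference. Of 20 gluconeogenesis and glycogen genes 16 were higher and 1 lower, with a median of 3.78. Fbp1, the gluconeogenic bisphosphatase, had ratios of 8.50, 8.56, 8.57 and 8.64 on C 9, C 10, C 11 and C 12, a mean of 8.57 ± 0.06, among the tightest of the high genes. G6pc1, which releases free glucose, stood at 5.34 ± 0.12, and at 3.05 by its other probe. The exception was Pck2, the mitochondrial form of the carboxykinase, at -2.08 ± 0.06, while its cytosolic counterpart Pck1 was at 3.36 ± 0.23. Of 28 genes of fatty acid oxidation and ketone bodies 24 were higher and 0 lower, with a median of 3.01. Peroxisomal genes were higher in 19 of 26 cases, with a median of 1.89, led by urate oxidase Uox at 6.01 ± 0.13. Oxidative phosphorylation genes were higher in 22 of 36 cases and lower in 0, with a median of 1.44 and a highest value of 2.80, but without loess 3 of 36 passed and the median was 0.41. Peroxisomal calls likewise fell to 11 without loess. Genes of fatty acid and triglyceride synthesis were higher in 6 of 17 cases, with a median of 0.67, led by Dgat2 at 4.46 ± 0.16.

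**Figure D2:**
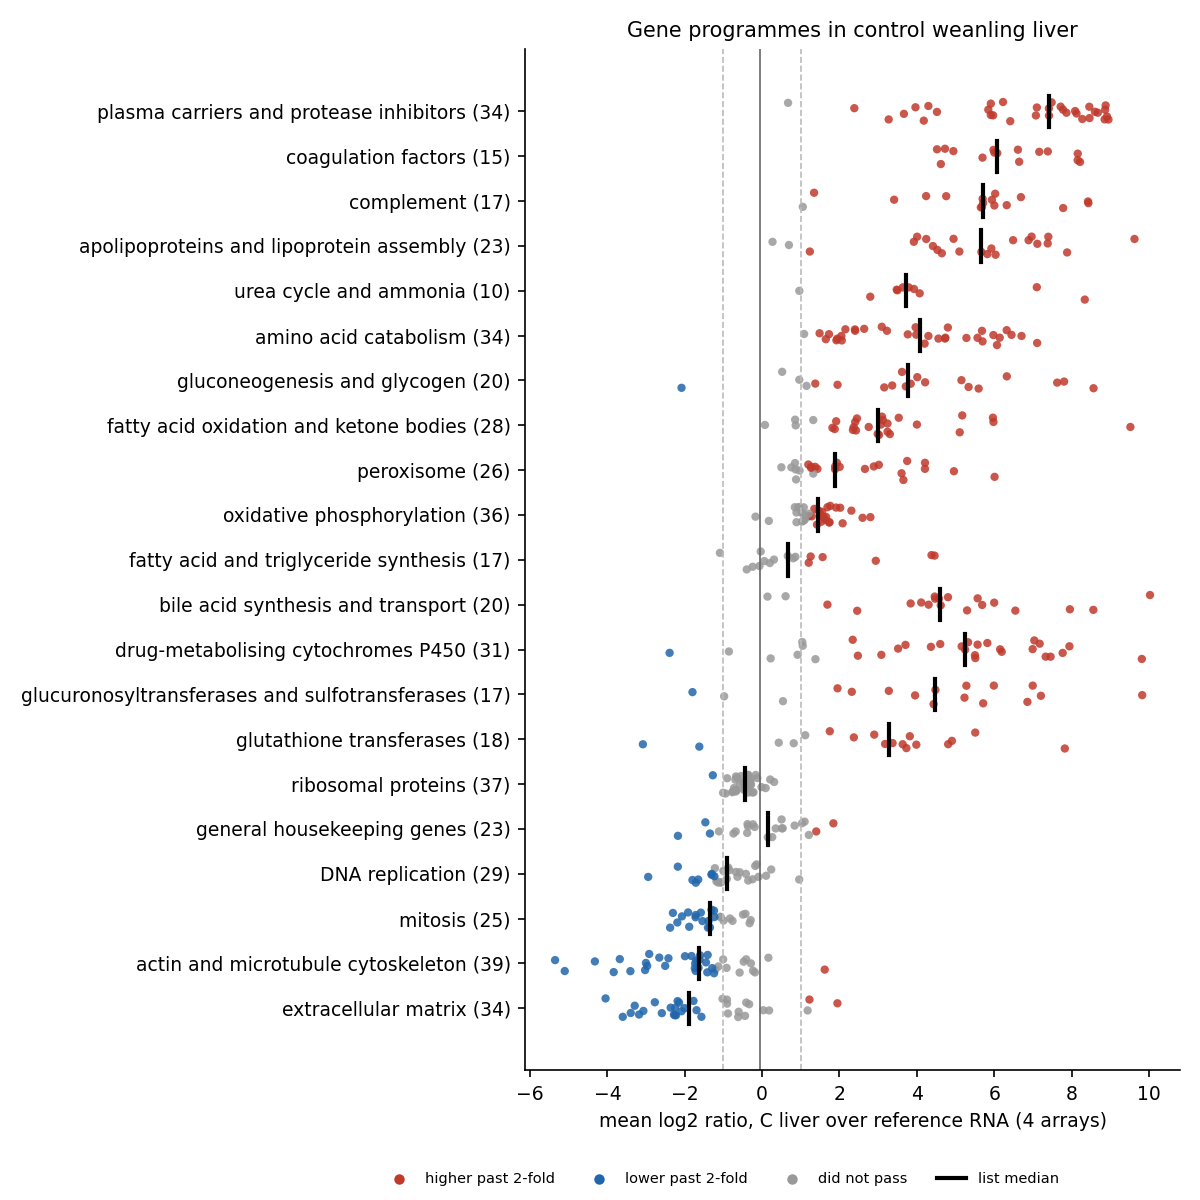
Mean log2 ratio of control liver over reference RNA (4 arrays) for measured members of 21 gene programmes, 1 point a gene, with the number measured in brackets. Black bars are list medians, the solid line is the median of all genes at -0.06 and dashed lines mark 2-fold. Plasma proteins had the highest median at 7.42, and extracellular matrix the lowest at -1.89.

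Many enzymes exist in a form typical of liver and in forms typical of other tissues, and the 2 kinds separated. Of 24 measured hepatic forms 21 were higher in liver and 0 lower, with a median of 4.46. Of 35 measured forms of other tissues 4 were higher and 14 lower, with a median of -0.97. The hepatic form had the higher ratio in all 15 families in which both are compared here, and in 7 of them the hepatic form was called higher while at least 1 partner was called lower. The glucose carrier Slc2a2 stood at 7.81 ± 0.03, against -2.92 ± 0.10 for Slc2a1. Pyruvate kinase showed 3.84 ± 0.14 for Pklr and -3.35 ± 0.10 for Pkm, whose other probe was at -0.75 and so within 2-fold of the reference. Glycogen synthase showed 5.15 ± 0.16 for Gys2 and -2.51 ± 0.09 for Gys1, whose other probe was at -0.47. Phosphofructokinase departed from this, since Pfkl, its liver form, was itself at -0.87 ± 0.09 and did not pass, although Pfkm and Pfkp were lower at -1.73 ± 0.06 and -3.71 ± 0.07. Fabp7, a fatty acid binding protein best known from brain, was the largest exception on the other side. Its ratios were 9.26, 8.79, 8.44 and 8.44 on C 9, C 10, C 11 and C 12, a mean of 8.73 ± 0.39, and none came near the reference.

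**Figure D3:**
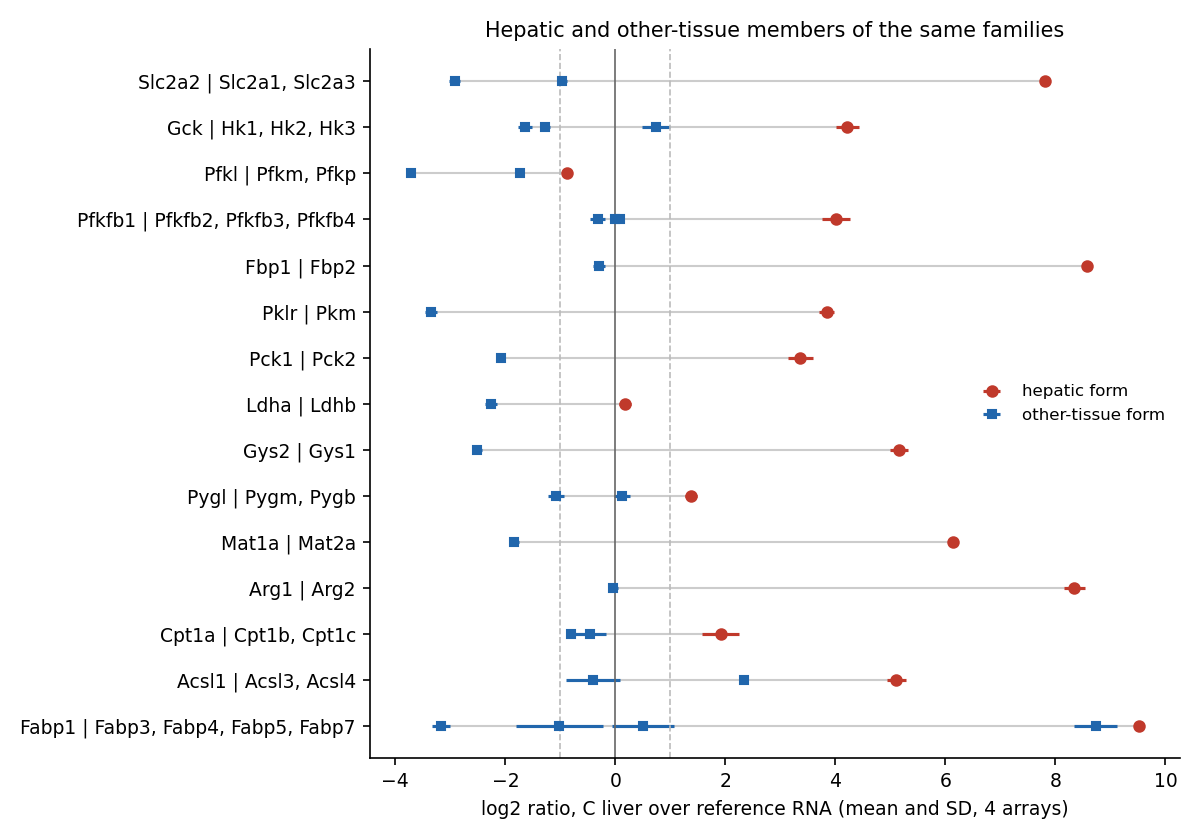
Log2 ratio of control liver over reference RNA for the hepatic form (circles) and the forms typical of other tissues (squares) in 15 gene families, as mean and SD over the 4 C arrays. The hepatic form lies furthest right in every family. Fabp7, at 8.73, has the highest ratio among the partners, with reference signal well above background on 1 of the 4 arrays.

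Bile acid and drug metabolism was high with a few exceptions that had low ratios. Of 20 genes of bile acid synthesis and transport 18 were higher and 0 lower, with a median of 4.59. The sodium taurocholate carrier Slc10a1 stood at 8.56 ± 0.10 and the conjugating enzyme Baat at 7.96 ± 0.14, and Cyp7a1, the rate-limiting enzyme of the classical pathway, was at least 43.6-fold higher. Abcb11, the canalicular bile salt pump, was uneven, at 3.98, 4.05, 4.20 and 6.25 on C 9, C 10, C 11 and C 12, with C 12 far above the other arrays. Its reference signal was well above background on 1 of the 4 arrays. Of 31 drug-metabolising P450 and reductase genes 24 were higher and 1 lower, with a median of 5.25. Cyp2e1, which oxidises ethanol and small solvents, stood at 7.33 ± 0.11 and Cyp1a2 at 5.50 ± 0.09, whereas Cyp3a9 was at least 5.24-fold lower. Conjugating enzymes gave 14 higher and 1 lower of 17 glucuronosyltransferase and sulfotransferase genes, with a median of 4.48, and 13 higher and 2 lower of 18 glutathione transferase genes, with a median of 3.28. Gstp1, a transferase known in rat liver as a marker of preneoplastic foci, had ratios of -3.04, -3.13, -3.08 and -3.08 on C 9, C 10, C 11 and C 12, a mean of -3.08 ± 0.04. Gsta2 in contrast stood at 7.83 ± 0.18. Probes for P450, transferase and globin families can pick up close relatives, and how far they did was not tested.

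Genes that differ between the sexes in adult rat liver could be measured only in part at this age. Of 12 measured 10 were higher than the reference and 0 lower, with a median of 4.86. Male-typical Cyp3a2 was among the highest genes of all, at 9.82 ± 0.27, and male-typical Cyp3a18 was at least 35-fold higher. The male-typical genes Cyp2c11, Cyp2c13 and Cyp2a2 were too dim in both channels on the C arrays to be measured. So were Cyp4a2, Sult2a2, Obp2b, Mup4, Mup5 and A1bg of this list, and Sult1e1 and Cux2 had no named probe. The counts therefore cover only members bright enough to be measured. Female-typical Cyp2c12 had ratios of 5.12, 5.33, 5.24 and 6.60 on C 9, C 10, C 11 and C 12, with the reference not well above background, which gives at least 40.4-fold. Cyp2c7, also female-typical in adults, stood at 3.52 ± 0.61, with C 10 lowest at 2.61 and with the lowest of its 3 probes at 1.79.

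Regulators had a lower median than most metabolic programmes, close to the 0.67 of fatty acid and triglyceride synthesis. Of 37 measured hepatocyte transcription factors and nuclear receptors 14 were higher and 2 lower, with a median of 0.66. The bile acid receptor Nr1h4 stood at 5.57 ± 0.15, but at 1.77 by its other probe, and the xenobiotic receptor Nr1i2 at 5.39 ± 0.13. Hnf4a, a master regulator of the hepatocyte, did not pass, at 0.97 ± 0.12, although it did with the scanner's own log ratios, at 3.68. The 2 lower members were Pparg, the adipocyte receptor, at -1.42 ± 0.08 and Cebpd at -1.83 ± 0.19. In the growth hormone and IGF axis 8 of 21 genes were higher and 3 lower, with a median of 0.52, which was -0.16 without loess. Igfals, the acid-labile subunit that keeps IGF in plasma, stood at 6.17 ± 0.19, the hormone Igf1 at 4.01 ± 0.06 and the receptor Ghr at 3.13 ± 0.40, while Igfbp6 was lower at -3.26 ± 0.32.

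Fetal liver genes ranged from far above to below the reference. Of 15 measured 5 were higher, 4 were lower and 6 did not pass, with a median of -0.11, which was 1.46 over the members measured in both channels on all 4 arrays. Afp, the fetal counterpart of albumin whose promoter is printed beside that of Alb, had ratios of 8.81, 8.92, 8.23 and 8.30 on C 9, C 10, C 11 and C 12, a mean of 8.57 ± 0.35, close to that of Alb. H19, an imprinted noncoding RNA of fetal tissues, stood at 7.60 ± 0.20. The fetal growth factor Igf2 was at 3.12, 3.89, 4.61 and 3.20 on C 9, C 10, C 11 and C 12, the highest on C 11. Cdkn1c and Mest, both imprinted, were higher at 2.87 ± 0.09 and 2.57 ± 0.15. The 4 lower genes were Hk2, Aldoc, Pkm and Aldoa, glycolytic forms that fetal liver shares with many other tissues.

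Periportal genes were high throughout, and pericentral genes were high in part. All 18 measured periportal genes were higher, with a median of 4.84, and 11 of 17 pericentral genes were higher and 0 lower, with a median of 3.73. The pericentral genes that did not pass were Glul at 0.96, Tbx3 at 0.66, Slc1a2 at 0.46, Axin2 at 0.24, Rnf43 at 0.22 and Lgr5 at -0.24. Rnf43 and Lgr5 were not well above background in liver on any C array. Iron, heme and metal genes gave 14 higher and 1 lower of 27, with a median of 1.18. The copper carrier Cp stood at 7.10 ± 0.24 and transferrin Tf at 5.97 ± 0.15, and the heme oxygenase Hmox1 was lower at -1.36 ± 0.07. Hamp, which encodes the iron hormone hepcidin, was uneven at -1.02, -0.16, -0.05 and 2.30 on C 9, C 10, C 11 and C 12, and did not pass. The metallothionein Mt2A also spread, with a mean of 3.69 ± 1.09 and its highest value on C 9.

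Genes of division, cytoskeleton and matrix stood below the reference. Of 25 measured mitosis genes 16 were lower and 0 higher, with a median of -1.35. Cdk1, the mitotic kinase, had ratios of -2.54, -2.57, -2.22 and -2.18 on C 9, C 10, C 11 and C 12, a mean of -2.38 ± 0.21 and about 5.20-fold lower. Plk1 stood at -2.31 ± 0.09 with all 4 arrays between -2.44 and -2.24. Of 29 DNA replication genes 8 were lower and 0 higher, with a median of -0.91. They were led by the ribonucleotide reductase subunit Rrm2 at -2.95 ± 0.32, with a second probe at -1.18. Of 39 actin and microtubule genes 27 were lower and 1 higher, with a median of -1.64, and Vim, the filament of mesenchymal cells, stood at -3.41 ± 0.11. Of 34 extracellular matrix genes 20 were lower and 2 higher, with a median of -1.89. Ccn2, a matrix-associated growth factor, was at -4.05 ± 0.15 and Col1a1 of type I collagen at -2.08 ± 0.13, while Col18a1, the source of endostatin, was higher at 1.95 ± 0.27. Ribosomal protein genes gave 0 higher and 1 lower of 37, with a median of -0.45, and without loess 34 of 37 were lower, with a median of -1.61. General housekeeping genes gave 2 higher and 3 lower of 23, and 0 higher and 11 lower without loess. DNA replication genes gave 19 lower without loess.

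Markers of other cell types ranged from high to low. Erythroid markers were higher in 11 of 18 cases, with a median of 2.74, led by the globin gene Hbb at 8.75 ± 0.27 (6.78 by its other probe) and by the epsilon globin Hbe2 at 7.40 ± 0.19, with 0 lower. Gata1, a factor of red cell precursors, was not well above background in liver on any C array. Kupffer cell and macrophage markers gave 11 higher and 2 lower of 21, with a median of 1.68. Clec4f, a lectin of Kupffer cells, had ratios of 6.72, 6.63, 6.58 and 6.69 on C 9, C 10, C 11 and C 12, and the macrophage lysozyme Lyz2 was lower at -2.97 ± 0.16. Endothelial markers gave 7 higher and 0 lower of 13, with the VEGF receptor Kdr at 6.56 ± 0.06. Stellate cell and fibroblast markers gave 4 higher and 4 lower of 16, among them Lrat, the vitamin A storing enzyme, which was at least 23.9-fold higher. Lymphocyte and neutrophil markers gave 3 higher and 6 lower of 17, and the 3 were S100a9, S100a8 and Camp, all known from granulocytes. For S100a9 the reference was well above background on 2 of the 4 arrays. The neutrophil gene Ltf was at -0.76, with no liver signal well above background on any C array, and Elane was too dim to be measured. Cholangiocyte markers gave 0 higher and 5 lower of 8, with Krt7 at -2.78 ± 0.07. Skeletal muscle markers gave 0 higher and 1 lower of 17, with a median of -0.44, and the lower one was the troponin Tnnc1 at -2.63 ± 0.15. Without arrays CC 1 and CC 2, 3 of the 17 were lower. One of them, the myosin light chain Myl11, was at -2.54 ± 0.04 in C, with an adjusted p of 0.0781 when all 16 arrays entered limma and 3.67e-11 without those 2. Exocrine pancreas markers gave 0 higher and 1 lower of 8, the lower one being the elastase Cela1, at least 2.77-fold lower. With the 4 C arrays alone 2 of the 8 were higher. Neuronal and neuroendocrine genes gave 2 higher and 3 lower of 18, with a median of -0.38. The higher ones were the decarboxylase Ddc, also known from liver, at 2.65 ± 0.15, and the tyrosine hydroxylase Th at 1.66 ± 0.16, which did not pass without loess, at 0.67. Among the lower ones were the hydrolase Uchl1 at -3.43 ± 0.07 and the filament protein Nes at -2.91 ± 0.09. Adipose markers gave 4 higher and 1 lower of 10, also without C 10. The higher ones were Car3, Thrsp, Aqp7 and Cidec, of which Car3 and Thrsp are also known from liver, and the lower one was resistin, Retn, at -3.20 ± 0.20. Array C 10 was the highest for several fat cell genes. Adipoq, the adiponectin gene, had ratios of -0.71, 1.02, -0.65 and -0.68 on C 9, C 10, C 11 and C 12, with liver signal well above background on 1 of the 4 arrays. Fabp4, the adipocyte fatty acid binding protein, had 0.20, 1.33, 0.35 and 0.12, and Cidea, a lipid droplet protein, had 0.57, 1.90, 0.59 and 0.35. Cox8b, a cytochrome oxidase subunit of muscle and brown fat that is not on the list, had 0.26, 2.52, 0.39 and 0.20. None of these 4 genes passed. The part of these cells in the ratios of shared genes was not tested.

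**Figure D4:**
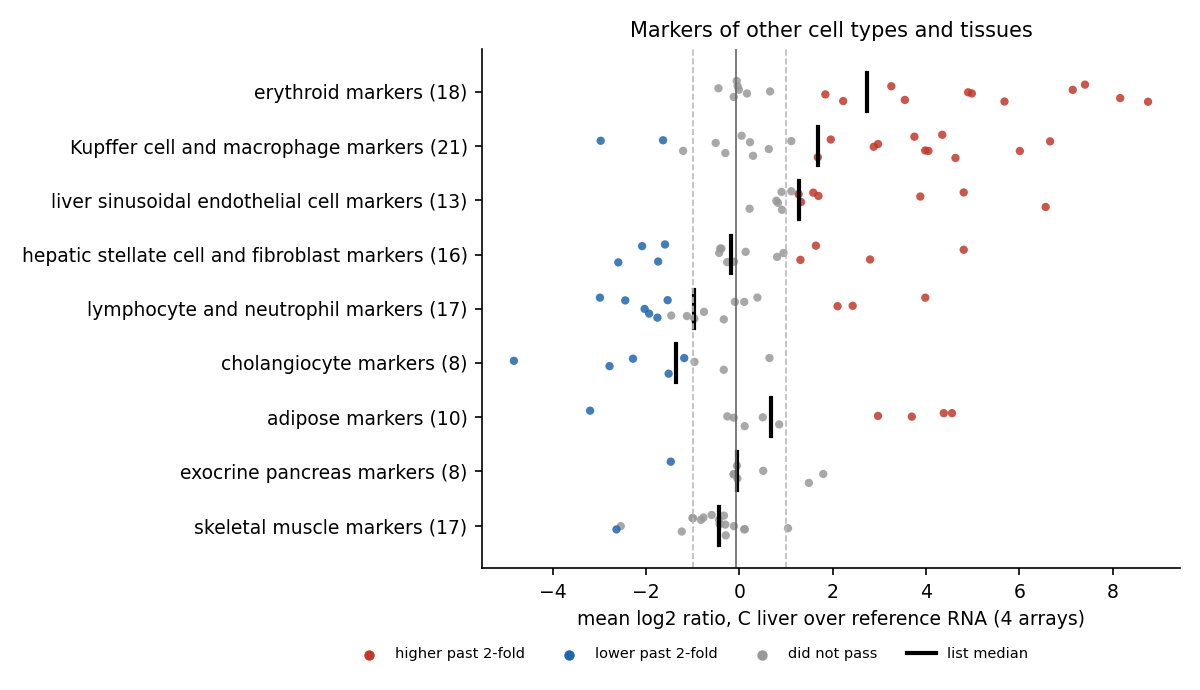
Mean log2 ratio of control liver over reference RNA (4 arrays) for markers of other cell types and tissues, 1 point a gene, with the number measured in brackets. Black bars are list medians, which run from 2.74 for erythroid markers to -1.35 for cholangiocyte markers.

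The 4 pools of control liver differed most in cholesterol synthesis, where array C 9 stood apart. Of 22 measured genes of this pathway, 22 had their lowest ratio on C 9. The list medians were -0.26, 2.001, 1.86 and 1.11 on C 9, C 10, C 11 and C 12. Hmgcs1, the cytosolic synthase whose promoter is printed among the 5, had ratios of 0.90, 3.85, 4.09 and 2.74, and Sqle, the squalene epoxidase, had -1.75, 1.31, 1.14 and 0.23. The median SD of these genes was 1.11 in C, against 0.23 in CC, 0.30 in M and 0.24 in MM. With all 4 arrays 8 of the 22 genes were higher and 0 lower, with a median of 1.21, and without C 9 the count was 12, with a median of 1.69. Among the 25 most variable genes with liver signal on all 4 arrays, chosen after their values were seen, 13 were on the cholesterol list. Scd, Fasn, Acly and Elovl6 of fatty acid synthesis were among them too, each lowest on C 9. Outside lipid synthesis, the secreted trypsin inhibitor Spink1 had the lowest ratio on C 9 too, at 0.49, 3.05, 3.82 and 4.06 on C 9, C 10, C 11 and C 12, and it did not pass when C 10, C 11 or C 12 was left out. The defensin Defa5 ran the other way, with 4.52, 3.01, 2.28 and 3.88, highest on C 9, as did the related Np4, with 4.15, 2.58, 1.96 and 3.50. The spread of Spink1 was not particular to C, with SDs of 1.63 in C, 1.22 in CC, 0.80 in M and 1.92 in MM. Those of Defa5 were 0.98, 0.68, 0.17 and 0.26 in that order, and those of Np4 0.97, 0.65, 0.29 and 0.35. What set C 9 apart was not tested.

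**Figure D5:**
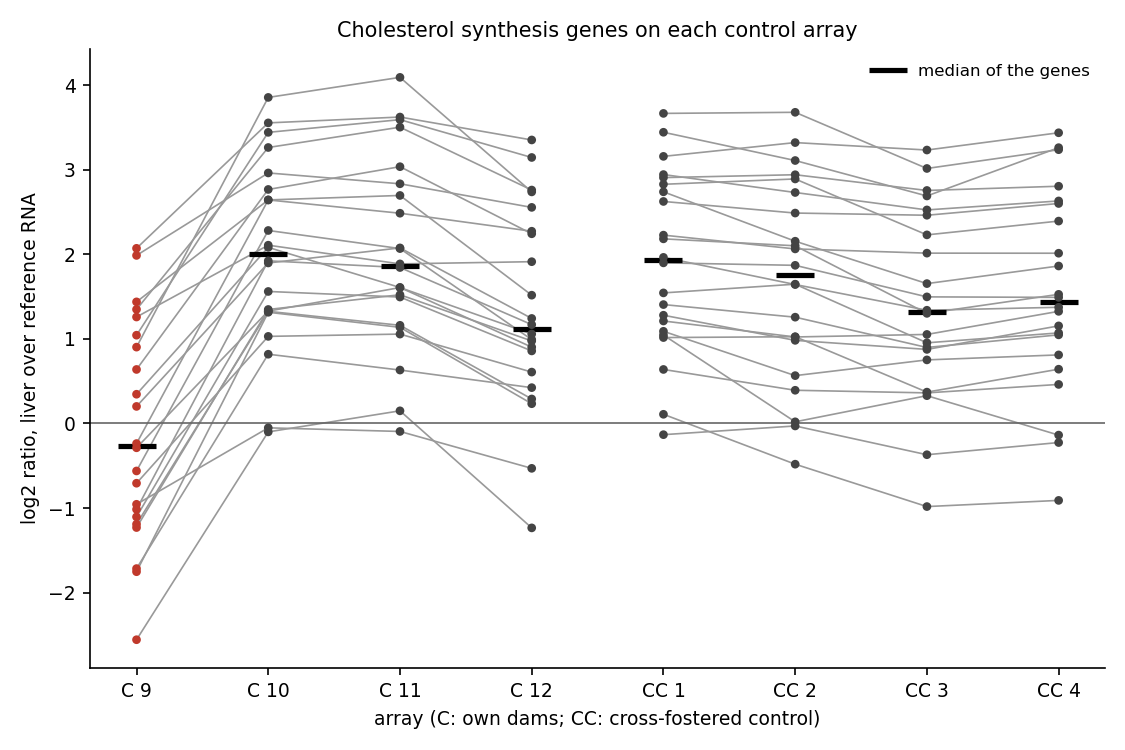
Log2 ratio of liver over reference RNA for the 22 cholesterol synthesis genes on each C array (left) and each CC array (right), with grey lines joining a gene within a group and black bars for the median of the genes. Array C 9, in red, has a median of -0.26, and the other C arrays lie between 1.11 and 2.001.

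Setting C beside CC, which by its labels differed in fostering and lay on the same slide, gave no call over all arrays, but 2 CC arrays differed from the rest in skeletal muscle genes. In limma's contrast of C minus CC against 0, 0 of 17879 genes passed, with a smallest adjusted p of 0.9997 and 635 genes at an unadjusted p below 0.05. Within array row 2, with C 11 and C 12 against CC 3 and CC 4, 0 genes passed, and 595 had an unadjusted p below 0.05. Within row 1, with C 9 and C 10 against CC 1 and CC 2, 69 genes passed, 3 higher and 66 lower in C, and 17 of the 66 were the 17 measured skeletal muscle markers. Ckm, the muscle creatine kinase, had ratios of -0.14, -0.38, -0.30 and -0.39 on C 9, C 10, C 11 and C 12, against 4.78, 4.83, -0.27 and -0.20 on CC 1, CC 2, CC 3 and CC 4. In liver it was not well above background on any C array. Myh8, the perinatal myosin heavy chain, had -1.11, -1.13, -1.06 and -1.26 on the C arrays in that order, against 4.11, 4.22, -1.18 and -1.14 on the CC arrays. CC 1 and CC 2 lay far above C, and CC 3 and CC 4 lay among the C arrays. The median of the muscle list was 3.28 on CC 1 and 3.23 on CC 2, against -0.61 to -0.42 on the C arrays. The median of the pancreas list was higher on CC 1 and CC 2 too, at 3.08 and 4.33, and 0 of its genes passed within row 1. Fostering and the make-up of 2 samples cannot be told apart in the row 1 result, and the source of the muscle and pancreas signal was not tested. Array CC 1 was also low for the highest genes, with Alb at 9.01, 8.97, 8.74 and 8.80 on C 9, C 10, C 11 and C 12, against 7.14, 8.94, 8.88 and 8.87 on CC 1, CC 2, CC 3 and CC 4. Without CC 1 the contrast again gave 0 genes, with 448 at an unadjusted p below 0.05, and without CC 1 and CC 2 it gave 0, with 506. Mean ratios for Alb were 8.88 ± 0.13 in C, 8.46 ± 0.88 in CC, 8.59 ± 0.04 in M and 8.68 ± 0.11 in MM. Afp averaged 8.57 ± 0.35 in C, 8.78 ± 0.68 in CC, 8.43 ± 0.37 in M and 7.96 ± 0.39 in MM. Cyp2c7 averaged 3.52 ± 0.61 in C, 2.87 ± 0.35 in CC, 5.86 ± 0.15 in M and 5.58 ± 0.48 in MM. Because all groups share the reference, these ratios are given side by side and were not correlated.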

How the data were processed

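The scanner files hold the mean and median intensity of each spot in both dyes, written by Agilent Feature Extraction 11.0.1.1 per the file headers, and the log10 ratio that the software computed from background-subtracted, dye-normalized signals. The authors also deposited a table of log2 ratios whose normalization is not given in the sources used here; on the C arrays it followed the loess ratios with a correlation of 0.996 to 0.997, a slope of 0.997 to 1.01 and medians between -0.047 and -0.043, which settles its scale and direction. Liver was Cy5 and the reference Cy3 per the labels, so a positive log2 ratio is higher in liver.

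Median intensities were corrected with normexp (offset 50) and normalized within each array by loess in limma 3.58.1 under R 4.3.3, with control spots given no weight. Outlier spots were left out and repeated spots averaged. Of 30367 probes, 18005 were named through their accession in RefSeq, and 20191 that were well above background in Cy5 or Cy3 on at least 3 of the 4 C arrays were kept. The brightest probe stood for a gene, 2113 genes had several, and among called genes 35 had probes on both sides of 0. A fit of group means over 16 arrays gave 12 residual and 4.59 prior degrees of freedom, and treat tested the C mean against 2-fold. On the C arrays 48.5% to 51.2% of spots were well above background in Cy5 and 71.1% to 72.8% in Cy3. Precision is limited by there being 4 arrays of C.

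The gene lists and the genes named were chosen with earlier results of these data known: the 15 highest and lowest ratios, the 10 largest bounds each way, members of selected lists and up to 8 extreme members of the others. Lists are described by counts and medians with no test. Alternatives changed the normalization, centring, background, filter, probe choice, arrays and margin. The procedure was tested on simulated data. Array row within a slide was used as a block only as an alternative, which gave 2024 higher and 1393 lower genes. The main fit had no term for row. Values of some genes are not reported here.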

Additional observations from a re-analysis of the deposited data

Results flagged for a closer look

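Among 161 genes named here, 11 had a single C array apart from the other arrays by Dixon's test. Chance alone gives this in about 1 in 20 groups, a share not far from that seen here. The test sets the gap against the range of the same gene, so small gaps, as in Fabp1 and Hmox1, are flagged too. Abcb11 was 6.25 on C 12, against 3.98 to 4.20 on the other C arrays, and Cyp2c12 was 6.60 on C 12, against 5.12 to 5.33. Cyp2c7 was 2.61 on C 10, against 3.73 to 3.92, and Slc2a1 was -2.77 on C 10, against -2.98 to -2.96. Adipoq was 1.02 on C 10, against -0.71 to -0.65, Cidea was 1.90 on C 10, against 0.35 to 0.59, and Cox8b was 2.52 on C 10, against 0.20 to 0.39, and these 3 were named after their values were seen. Cyp4a3 was 7.94 on C 9, against 7.02 to 7.16, and Lrat was 4.99 on C 9, against 4.73 to 4.75. Fabp1 was 9.41 on C 11, against 9.55 to 9.56, and Hmox1 was -1.26 on C 11, against -1.41 to -1.39. These are log2 ratios of liver over reference RNA.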

How the results depend on the processing

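No gene was called in opposite directions under the alternatives run. Without loess 1049 genes were higher and 5030 lower, and with the scanner's log ratios 2665 were higher and 4466 lower. Tested against 0, 6290 were higher and 7565 lower (45.4% higher), and against 4-fold 881 were higher and 332 lower (72.6% higher). Leaving out each C array in turn gave 1912 to 1964 higher and 1270 to 1295 lower genes. The contrast of C minus CC in limma gave 0 genes under every alternative that was run for it except array row 1 alone, which gave 69. These row fits, and leaving out CC 1 or both CC 1 and CC 2, were added to this contrast after seeing the data, as were its other centring, background, filter and probe settings. Among the genes named, those that changed sign lay within 2-fold of the reference before and after, and passed neither before nor after. Without loess these were Cidea at -0.10, Fabp4 at -0.37, Hamp at -0.70, Lrg1 at -0.22, Pltp at -0.29, Scd at -0.88 and Sqle at -0.67. With the scanner's log ratios they were Hamp at -0.25, Scd at -0.16 and Sqle at -0.014. The deposited table gave Scd -0.072 and Sqle -0.015, recentring gave Scd -0.053 and offset 16 gave Acly 0.0083. Array row 1 alone gave Adipoq 0.15, Hamp -0.59, Scd -0.56 and Sqle -0.22, and row 2 alone gave Acly 0.40 and Elovl6 0.27. Leaving out 1 C array gave ranges of -0.29 to 0.42 for Acly, -0.56 to 0.22 for Elovl6, -0.63 to 0.051 for Fasn, -0.41 to 0.70 for Hamp, -0.35 to 0.60 for Scd and -0.13 to 0.89 for Sqle. The highest value of each of these 6 came without C 9. The causes were not tested. No paired analysis was possible because the numbers of C and CC do not overlap. With no dye swap, signal near background limits the ratios of dim genes.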
